A study of Mus musculus with 6 samples.

Results

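The 44 protein-coding collagen genes of the mouse were followed in the livers of Zpbp2 KO and WT males. Membership was set by name alone, as every protein-coding gene whose symbol is Col, a type number, the letter a and a chain number. The count table held 37991 Ensembl gene IDs, of which 32919 matched a symbol. The family itself was picked with earlier results of these data known. Of the 44 genes, 11 encode chains of fibrillar collagens (types I, II, III, V, XI, XXIV and XXVII), 9 encode chains found in or at basement membranes (types IV, VII, XV and XVIII), and 24 encode chains of other types. The mutant animals were 3 B6.Zpbp2-/- males (Zpbp2 KO), which lack the gene for zona pellucida binding protein 2, a sperm protein, and they were set against 3 C57BL/6J males (WT). All 6 animals were 12 weeks old, and RNA came from the liver, with 1 library per animal. The loss is labelled as a property of the strain, with no driver, tissue or treatment named, and the sources used here do not say which part of Zpbp2 is missing. A whole liver mixes hepatocytes with stellate, endothelial, portal and bile duct cells, and in such bulk RNA fewer cells of a type and less RNA per cell cannot be told apart.

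A collagen is a protein of chains wound around each other into a stiff helix, and a type is named for the chains it combines. Fibrillar collagens assemble outside the cell into the cables that give tissue its strength. Type IV collagen forms a network in basement membranes, together with laminins and other proteins. In the liver, hepatic stellate cells and portal fibroblasts are the main makers of fibrillar collagen, and it is their output that builds scar in fibrosis. Liver sinusoids, unlike most capillaries, lack a continuous basement membrane, and type XVIII collagen, whose end piece is released as endostatin, is made by hepatocytes.

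Total counts per library were 47821653 to 51328826 in Zpbp2 KO livers and 37904891 to 52955687 in WT livers. Zpbp2 itself, the check of the labels, had 0, 0 and 0 counts in Zpbp2 KO livers and 4, 13 and 7 counts in WT livers. Levels are given as CPM, the counts-per-million scale, with library sizes scaled by TMM, and values per liver are in the order of replicates 1, 2 and 3. A count of 0 allows up to 3 counts, or 0.0560 to 0.0786 CPM, by counting error alone. Zpbp2 KO liver 2 stood apart from the rest. All 12 endothelial markers were lower in it than in each of the other 5 livers, with a summed level of 226 CPM, against 338 to 521 CPM in those 5. So were 11 of 14 stellate cell markers, with 244 CPM against 306 to 397 CPM. Of 10 hepatocyte markers, 6 were higher in it than in each of the other 5 livers and 2 were lower. Over all tested genes, 26.6% had their highest value in that liver and 24.0% their lowest. Log2 fold changes without that liver are given beside the values it moved by over 1.5 times or turned round, among the genes recomputed without it. Markers of liver cells were present as labelled, albumin (Alb) reaching 66094 to 76967 CPM.

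Collagen transcripts made up a small and even share of the liver's RNA in both genotypes, and type XVIII supplied most of it. Collagen genes took 0.159%, 0.154% and 0.169% of all counts in Zpbp2 KO livers and 0.159%, 0.172% and 0.171% in WT livers. Their levels summed to 1587, 1625 and 1664 CPM in Zpbp2 KO livers and to 1566, 1699 and 1696 CPM in WT livers, means of 1625 ± 38.3 CPM and 1654 ± 76.1 CPM (SD, n = 3 each). The groups overlapped, and the means differed by less than 1 SD of the WT livers. Col18a1 alone accounted for 71.9% ± 1.03 of that sum in Zpbp2 KO livers and 73.7% ± 1.45 in WT livers. Without Col18a1, the remaining 43 genes summed to 431, 475 and 466 CPM in Zpbp2 KO livers and to 421, 419 and 465 CPM in WT livers, again with overlap.

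A total of 33 collagen genes had counts enough for the test between genotypes, 9 fibrillar, 9 basement membrane and 15 other. The 11 that did not were Col2a1, Col6a4, Col9a1, Col9a2, Col10a1, Col11a1, Col17a1, Col19a1, Col22a1, Col26a1 and Col28a1, several of them cartilage or skin collagens. Of these, Col10a1 and Col26a1 had no count in any liver, and the others had 1 to 21 counts over all 6 livers. The tested genes ranged from Col4a6, with 61 counts in all, to Col18a1, with 345781.

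No collagen gene was called between the genotypes. At an adjusted p under 0.05 with edgeR's quasi-likelihood test and Benjamini-Hochberg adjustment over 14686 genes, 0 of 33 collagens were higher and 0 were lower in Zpbp2 KO livers, where 0.0136% of all tested genes were called in either direction. The lowest adjusted p of a collagen was 0.798. DESeq2 called 0 of the 33 collagens, with 0.511% of genes called, and limma-voom called 0, with 0.0136%. At an unadjusted p under 0.05, edgeR had 1 collagen higher in Zpbp2 KO livers (Col8a2, 3.03% of the 33, against 2.86% of all tested genes) and 0 lower (against 2.93%), 5.79% of all tested genes reaching it in either direction, while DESeq2 had 0 in either direction. The genotypes did not overlap for that same 1 collagen, higher in Zpbp2 KO livers, which is 3.03% of the 33, against 5.56% of all tested genes, and 0 collagens were lower without overlap, against 6.01%. In either direction the share over all genes was 11.6%. The log2 fold change, Zpbp2 KO over WT, was above 0 for 20 collagens and below 0 for 13, with a median of 0.07, where 52.9% of all tested genes were above 0 and their median was 0.01. Leaving out Zpbp2 KO liver 2 gave 25 above and 8 below 0 with a median of 0.17, and leaving out Zpbp2 KO liver 3 gave 15 above and 18 below with a median of -0.06. The direction of that median therefore turned on single animals.

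**Figure D1:**
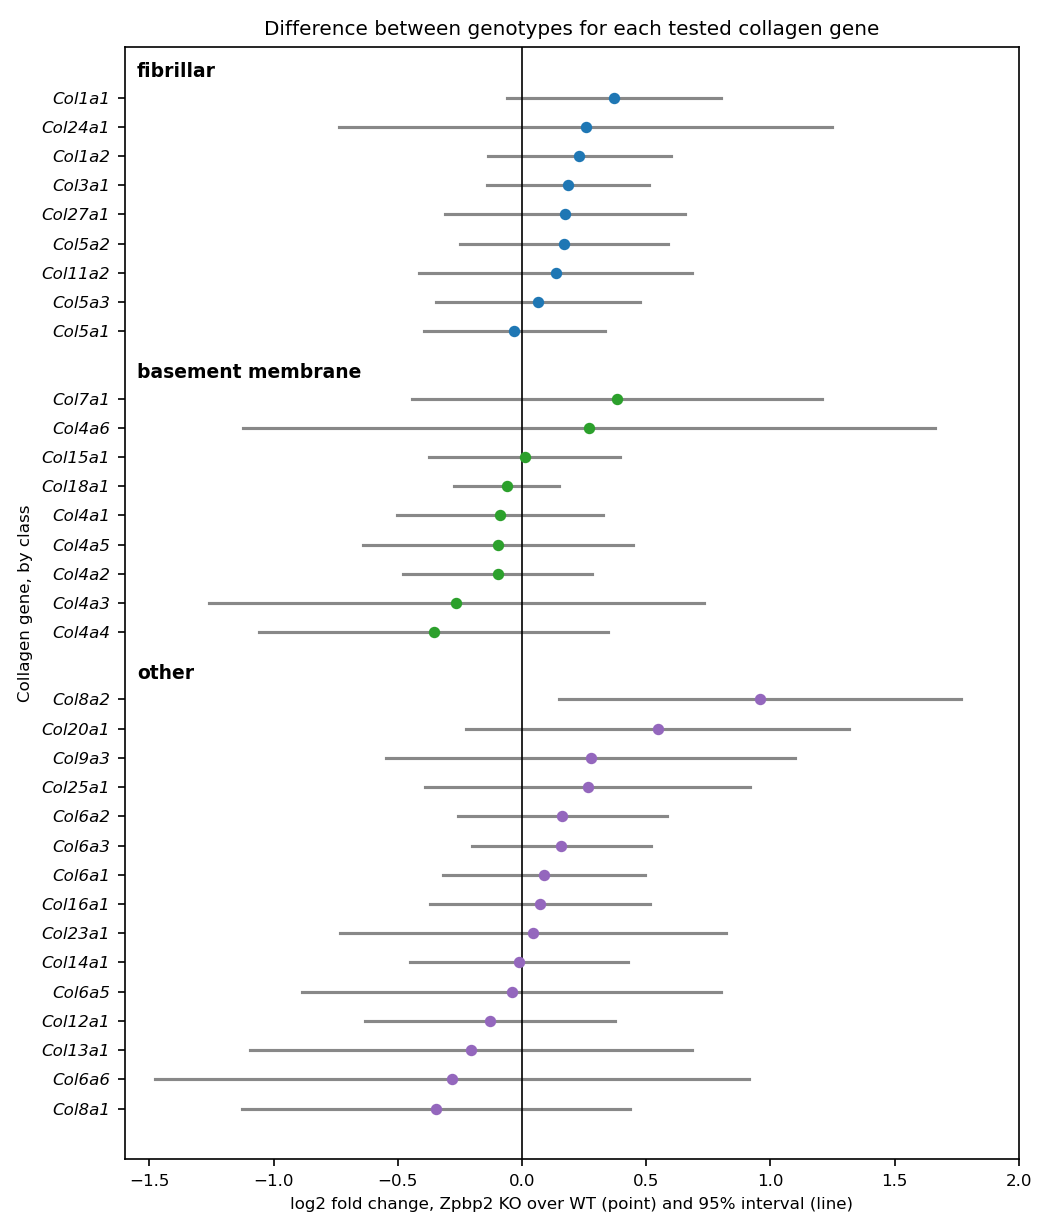
Difference between Zpbp2 KO and WT livers for the 33 tested collagen genes, in 3 classes. Points are log2 fold changes from edgeR and lines are 95% intervals, with values right of 0 being higher in Zpbp2 KO livers. The interval of Col8a2, from 0.15 to 1.77, is the only one that leaves out 0 before adjustment, and the interval of Col18a1, from -0.27 to 0.15, is the narrowest.

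Ordered by level per length (CPM per kilobase of the longest coding transcript), the leading genes were Col18a1, Col5a3, Col27a1, Col14a1, Col3a1, Col4a1, Col4a2, Col1a2, Col6a1 and Col1a1. The same 10 genes led when the coding length was used. Col18a1 had a mean over 6 livers 13.0-fold that of Col5a3, and 94.1-fold that of Col1a1. The range of Col18a1 per length, 205 to 229 over the 6 livers, did not meet that of Col5a3, 13.3 to 22.1, nor did the range of Col5a3 meet that of Col27a1, 6.90 to 12.8. From Col27a1 down, each gene's range overlapped with that of the next gene in the order as far as Col1a1. Within single livers, Col4a1 was above Col4a2, and Col1a2 above Col6a1, in 6 of 6, while the other neighbours among these 8 genes changed places in at least 1 liver. At the low end, Col4a3, Col4a4 and Col4a6 reached at most 0.0493, 0.0545 and 0.0535 per kilobase in any liver.

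**Figure D2:**
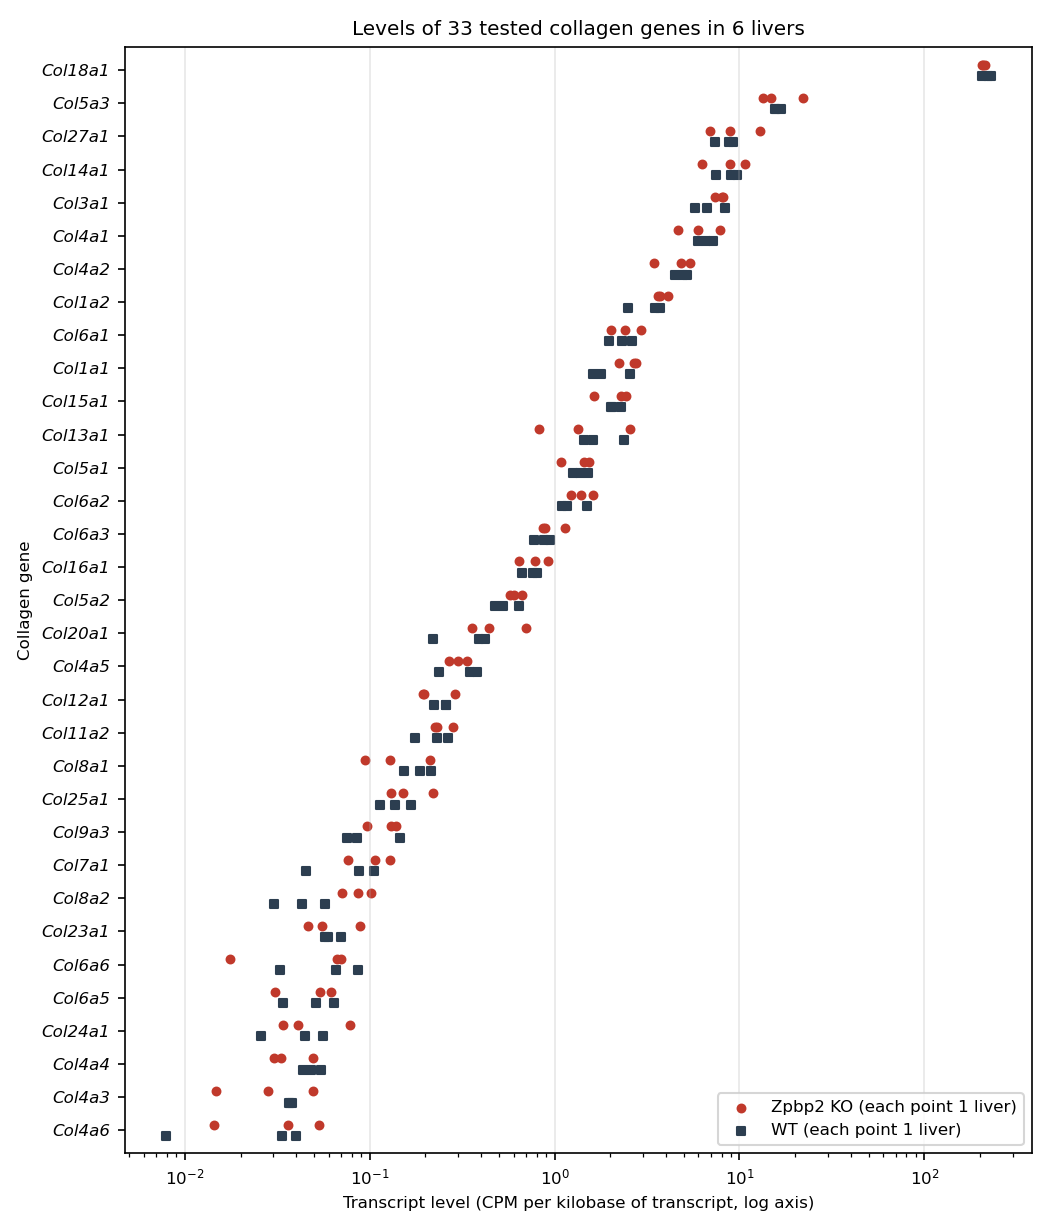
Level of each tested collagen gene in each liver, in CPM per kilobase of transcript on a log axis, with genes in order of their mean. Red circles are 3 Zpbp2 KO livers and dark squares are 3 WT livers. Col18a1 stands alone at 205 to 229, Col5a3 follows at 13.3 to 22.1, and the genotypes lie over each other at nearly every gene.

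The start regions of 4 genes are shown as the 120 bases before the transcription start, from RefSeq promoter windows of the build GRCm38.p6. They are Col18a1, the leading gene, which has a pair of listed starts, Col5a3 and Col27a1, the next in the order, and Col1a2, a chain of type I. Windows were found for 35 of the 44 collagen genes, 38 windows in all. Both strands were searched for 3 motifs, with matches in capitals. The CCAAT box was searched as CCAAT, which on the other strand reads ATTGG. The GC box was searched as GGGCGG, which on the other strand reads CCGCCC. The TATA box was searched as TATAAA, which on the other strand reads TTTATA, and no capital stretch holds more than 1 of the motifs. The first Col18a1 start lies after chr10:77166531-77166650, the second after chr10:77113706-77113825, and the Col5a3 start after chr9:20815068-20815187, all on the minus strand. The Col27a1 start lies after chr4:63215292-63215411 and the Col1a2 start after chr6:4505498-4505617, both on the plus strand.
Col18a1 first start: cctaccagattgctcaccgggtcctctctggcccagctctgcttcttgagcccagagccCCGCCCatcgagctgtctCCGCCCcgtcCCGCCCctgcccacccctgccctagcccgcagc
Col18a1 second start: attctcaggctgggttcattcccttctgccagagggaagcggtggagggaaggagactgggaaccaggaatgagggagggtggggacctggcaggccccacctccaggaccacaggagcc
Col5a3: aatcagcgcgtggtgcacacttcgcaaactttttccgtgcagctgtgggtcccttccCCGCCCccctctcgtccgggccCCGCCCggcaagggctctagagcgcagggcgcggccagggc
Col27a1: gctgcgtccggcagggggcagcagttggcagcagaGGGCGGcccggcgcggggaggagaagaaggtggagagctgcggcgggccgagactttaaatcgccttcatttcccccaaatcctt
Col1a2: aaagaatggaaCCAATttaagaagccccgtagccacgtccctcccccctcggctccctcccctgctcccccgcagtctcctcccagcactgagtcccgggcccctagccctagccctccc

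The first Col18a1 stretch held 3 GC box matches, Col5a3 held 2, Col27a1 held 1, and Col1a2 held 1 CCAAT match, while the second Col18a1 stretch held none of the 3 motifs. Within the 250 bases before the start, 57.9% of the 38 collagen windows held a GC box, against 32.7% of the 32851 windows of all genes. The CCAAT letters were in 34.2% of collagen windows and 33.8% of all windows, and TATAAA was in 13.2% and 12.4%. These are matches of letters, not measured binding, and the gene-level counts do not tell the Col18a1 starts apart.

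Col18a1 (chromosome 10), the source of endostatin, was the steadiest collagen over the animals. Its level was 1156, 1150 and 1198 CPM in Zpbp2 KO livers and 1145, 1279 and 1231 CPM in WT livers. The groups overlapped, and the highest liver was only 1.12-fold above the lowest. The log2 fold change was -0.06 ± 0.0926 (SE; 95% interval -0.27 to 0.15; adjusted p = 0.898, edgeR's quasi-likelihood test). Zpbp2 KO liver 2 held 95.7% of the mean of the other 5 livers for Col18a1. That liver was low in endothelial and stellate markers. Its 10 hepatocyte markers had a median log2 ratio of 0.28 to the other 5 livers, with 6 above all of them and 2 below. Whether these had a part in its Col18a1 level was not tested.

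Among the fibrillar collagens, the chains of types I and III, the main cables of portal tracts and of scar, had log2 fold changes above 0 that did not pass the test. Col1a1 (chromosome 11), the α1 chain of type I, was at 13.2, 15.9 and 16.4 CPM in Zpbp2 KO livers and at 10.5, 9.62 and 15.1 CPM in WT livers. All the Zpbp2 KO livers were above WT livers 1 and 2, and WT liver 3 lay among them. Its log2 fold change of 0.37 ± 0.188 had an unadjusted p of 0.0825 and an adjusted p of 0.798 in edgeR's test. Col1a2 (chromosome 6), the partner chain of type I, was at 19.4, 19.8 and 21.8 CPM in Zpbp2 KO livers and at 18.8, 13.3 and 19.97 CPM in WT livers. Only WT liver 2 was clearly lower, and the log2 fold change was 0.23 ± 0.161 (edgeR adjusted p = 0.805). Col3a1 (chromosome 1), the single chain of type III collagen, was at 41.2, 45.2 and 44.9 CPM in Zpbp2 KO livers and at 37.1, 31.9 and 46.5 CPM in WT livers. The highest and the lowest value were both WT livers, and the log2 fold change was 0.18 ± 0.142 (edgeR adjusted p = 0.814). For these 3 genes the 95% intervals ran from -0.06 to 0.80, from -0.14 to 0.60 and from -0.14 to 0.51 on the log2 scale. WT liver 2 was the lowest of all 6 for each of them, and without it their log2 fold changes were 0.24, 0.07 and 0.07. WT liver 3 was the highest WT liver for each, and without it the values were 0.57, 0.33 and 0.33.

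Type V collagen sits inside type I fibrils and sets their width. Col5a3 (chromosome 9), its α3 chain, was the second collagen per length, at 81.6, 135 and 90.7 CPM in Zpbp2 KO livers and 95.9, 103 and 94.9 CPM in WT livers. Zpbp2 KO liver 2 was far above the rest, and the other 2 Zpbp2 KO livers were below every WT liver. The log2 fold change was 0.07 ± 0.179 (edgeR adjusted p = 0.953), and -0.19 without Zpbp2 KO liver 2. Col5a1 (chromosome 2), the α1 chain, was at 12.1, 9.14 and 12.8 CPM in Zpbp2 KO livers and 10.5, 11.6 and 12.7 CPM in WT livers, with the lowest value in Zpbp2 KO liver 2. Col5a2 (chromosome 1), the α2 chain, was at 4.01, 3.79 and 4.41 CPM in Zpbp2 KO livers and 4.23, 3.14 and 3.49 CPM in WT livers. These overlapped too, with log2 fold changes of -0.03 ± 0.159 for Col5a1, or 0.10 without Zpbp2 KO liver 2, and 0.17 ± 0.183 for Col5a2. Per length, Col5a3 was 9.29, 20.4 and 9.71 times the level of Col5a1 in Zpbp2 KO livers and 12.5, 12.2 and 10.3 times in WT livers. The ratio of these transcripts thus differed most in 1 animal, and protein chains were not measured.

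Col27a1 (chromosome 4), a fibrillar collagen best known from cartilage, came next in the order by mean level per length. Within single livers it was above Col14a1, the gene after it, in only 2 of 6. It had 52.5, 97.7 and 67.8 CPM in Zpbp2 KO livers and 56.1, 66.7 and 70.3 CPM in WT livers. Again Zpbp2 KO liver 2 was the highest of the 6, and the other livers of the genotypes overlapped. The log2 fold change was 0.17 ± 0.211 (edgeR adjusted p = 0.870), and -0.10 without that liver. The low Col24a1 and Col11a2 completed the tested fibrillar genes, with log2 fold changes of 0.26 and 0.14. In all, 8 of 9 tested fibrillar genes lay above 0 (median 0.17), and 0 passed the test in either direction. That count was 7 without Zpbp2 KO liver 2 and stayed between 7 and 9 with any 1 animal left out. Summed fibrillar levels were 226, 329 and 261 CPM in Zpbp2 KO livers and 235, 241 and 265 CPM in WT livers, the high value being liver 2 with its Col5a3 and Col27a1.

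In the basement membrane class, too, no gene passed the test. Of its 9 tested genes, 3 were above 0 and 6 below, the median of their log2 fold changes being -0.09. With Zpbp2 KO liver 2 left out, the number below 0 was 4. Col4a1 (chromosome 8), the α1 chain of the common type IV network, was at 51.9, 30.9 and 39.6 CPM in Zpbp2 KO livers and at 39.2, 43.5 and 47.5 CPM in WT livers. The highest and lowest of all 6 animals were thus both Zpbp2 KO livers, and the log2 fold change of -0.09 ± 0.180 (edgeR adjusted p = 0.930) was 0.08 without liver 2. Col4a2 (chromosome 8), the α2 chain, had 35.0, 22.1 and 31.0 CPM in Zpbp2 KO livers and 28.9, 31.8 and 33.7 CPM in WT livers. It ranked the animals much as Col4a1 did, with liver 1 of the Zpbp2 KO group highest and liver 2 lowest, and its log2 fold change was -0.10 ± 0.166, or 0.07 without liver 2.

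Col4a1 and Col4a2 lie head to head and are transcribed away from a shared start, and their products join in 1 molecule. The RefSeq windows of the pair share 78 bases. By the RefSeq starts, both genes cover the 22 bases at chr8:11312805-11312826 (GRCm38.p6, plus strand shown). In GENCODE M21, too, exons of the pair share 22 bases on opposite strands. The RefSeq stretch is printed because it is what the pair has in common, with its 1 GC box match in capitals.
Col4a1 and Col4a2 shared start: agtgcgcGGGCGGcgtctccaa
How reads in that short stretch were counted is not known, as no strand option was found. Per length, the ratio of Col4a1 to Col4a2 was 1.45, 1.36 and 1.25 in Zpbp2 KO livers and 1.32, 1.33 and 1.38 in WT livers. That ratio spanned 1.16-fold over the 6 livers, whereas Col4a1 spanned 1.68-fold and Col4a2 spanned 1.58-fold. The ratio of the Col4a1 and Col4a2 transcripts thus varied less between animals than the level of either. This was not particular to the pair. The same held for Col1a1 with Col1a2, Col1a1 with Col3a1 and Col6a1 with Col6a2, whose ratios spanned 1.43-fold, 1.29-fold and 1.20-fold. It did not hold for Col5a1 with Col5a2, Col5a3 with Col5a1 or Col4a5 with Col4a6, at 1.53-fold, 2.19-fold and 5.97-fold.

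The other basement membrane genes were lower. Col15a1 (chromosome 4), a collagen at the border of basement membrane and stroma, had 11.9, 8.49 and 12.6 CPM in Zpbp2 KO livers and 10.4, 10.6 and 11.8 CPM in WT livers. Zpbp2 KO liver 2 was again the lowest, and the log2 fold change was 0.01 ± 0.168, or 0.17 without that liver. Col7a1 (chromosome 9), which forms the anchoring fibrils of skin, was at 0.983, 1.18 and 0.709 CPM in Zpbp2 KO livers and 0.419, 0.971 and 0.812 CPM in WT livers. Its log2 fold change of 0.38 ± 0.360 was 0.09 with WT liver 1, the lowest, left out, 0.65 without WT liver 2 and 0.20 without Zpbp2 KO liver 2. Col4a4 (chromosome 1), a chain of kidney glomerular basement membrane, was at 0.335, 0.307 and 0.498 CPM in Zpbp2 KO livers and 0.439, 0.486 and 0.550 CPM in WT livers. WT livers 2 and 3 lay on either side of the highest Zpbp2 KO liver, and the log2 fold change was -0.36 ± 0.306 (edgeR adjusted p = 0.837), -0.23 without Zpbp2 KO liver 2 and -0.60 without Zpbp2 KO liver 3. Col4a3, Col4a5 and Col4a6 had log2 fold changes of -0.26, -0.10 and 0.27.

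Col8a2 (chromosome 4), a short-chain collagen known from the membrane under the corneal endothelium, was the collagen gene whose genotypes did not overlap. It had 18, 14 and 23 counts in Zpbp2 KO livers and 13, 10 and 5 counts in WT livers, or 0.376, 0.307 and 0.441 CPM against 0.248, 0.187 and 0.131 CPM. Every Zpbp2 KO liver was above every WT liver. The log2 fold change was 0.96 ± 0.353 (95% interval 0.15 to 1.77), with an unadjusted p of 0.0256 and an adjusted p of 0.798 in edgeR's test, so it failed the correction. With single animals left out it ran from 0.77 to 1.20. Its partner chain in type VIII, Col8a1 (chromosome 16), stood at 1.09, 0.658 and 0.479 CPM in Zpbp2 KO livers and 0.782, 0.953 and 1.10 CPM in WT livers, with overlap and a log2 fold change of -0.35 ± 0.341.

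Type VI collagen makes beaded filaments around cells from its α1, α2 and α3 chains. Col6a1 (chromosome 10) had 9.89, 8.24 and 12.0 CPM in Zpbp2 KO livers and 10.8, 8.09 and 9.46 CPM in WT livers. Col6a2 (chromosome 10) had 6.44, 5.70 and 7.49 CPM in Zpbp2 KO livers and 6.98, 5.10 and 5.45 CPM in WT livers. Both were highest in Zpbp2 KO liver 3 and lowest in WT liver 2, with overlap. Col6a3 (chromosome 1) had 8.74, 8.97 and 11.5 CPM in Zpbp2 KO livers and 7.86, 8.82 and 9.57 CPM in WT livers, and it too was highest in Zpbp2 KO liver 3. The log2 fold changes were 0.09 ± 0.178, 0.16 ± 0.183 and 0.16 ± 0.157, none past the test. Without Zpbp2 KO liver 3 they were -0.06, 0.05 and 0.02. Without Zpbp2 KO liver 2 the values of Col6a1 and Col6a2 were 0.21 and 0.25. Per length, Col6a1 stood at 1.74, 1.64 and 1.82 times Col6a2 in Zpbp2 KO livers and at 1.76, 1.80 and 1.97 times in WT livers.

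The remaining chains belong mostly to collagens that decorate fibrils or span membranes. Col14a1 (chromosome 15), which binds the surface of fibrils, was the fourth collagen per length, at 57.3, 40.7 and 69.5 CPM in Zpbp2 KO livers and 58.3, 48.2 and 62.4 CPM in WT livers. The extremes were both Zpbp2 KO livers, and the log2 fold change of -0.01 ± 0.191 (edgeR adjusted p = 0.995) was 0.17 without liver 2. Col20a1 (chromosome 2), of the same fibril-associated group, was at 2.22, 3.53 and 1.78 CPM in Zpbp2 KO livers and 1.11, 1.96 and 2.10 CPM in WT livers. Its log2 fold change of 0.55 ± 0.336 (edgeR adjusted p = 0.798) was 0.22 without Zpbp2 KO liver 2, and 79 of its exon bases are shared with another RNA of the same strand. Col13a1 (chromosome 10), a collagen with a membrane anchor, had 8.09, 2.61 and 4.21 CPM in Zpbp2 KO livers and 7.53, 5.12 and 4.53 CPM in WT livers, which is a 3.10-fold range. Over the whole class of other collagens, 9 genes were above 0 and 6 below, with a median of 0.07.

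Single animals held the highest or lowest value of many collagens. For Zpbp2 KO liver 2 the share at either extreme was near that of all tested genes. For Zpbp2 KO liver 3 the share of highest values was larger than among all tested genes. Zpbp2 KO liver 2 was at either extreme for 54.5% of tested collagens, against 50.6% of all tested genes. In Zpbp2 KO liver 2, 11 of the 33 tested collagens were lower than in each of the other 5 livers (33.3%, against 24.0% of all tested genes), and 7 were higher than in each (21.2%, against 26.6%). The low ones were Col4a1, Col4a2, Col4a4, Col5a1, Col6a5, Col6a6, Col13a1, Col14a1, Col15a1, Col16a1 and Col23a1. Among them, Col13a1 was at 44.2%, Col14a1 at 68.9%, Col4a2 at 69.0% and Col4a1 at 69.8% of the mean of the other 5 livers. The high ones were Col5a3, Col7a1, Col11a2, Col12a1, Col20a1, Col25a1 and Col27a1, with Col5a3 at 145%, Col27a1 at 156% and Col20a1 at 193% of that mean. These genes were singled out after their values were seen. Type I and III chains stayed within the range of the other animals. In the same liver the median log2 ratio to the other 5 livers was -0.95 over the 12 endothelial markers, -0.56 over the 14 stellate cell markers, 0.42 over the 13 markers of myofibroblasts and portal fibroblasts (6 above all other livers and 2 below) and 0.66 over the 6 mesothelium markers, and whether these had a part in the collagen values was not tested. Zpbp2 KO liver 3 had the highest value of 14 tested collagens (42.4%, against 15.2% of all tested genes) and the lowest value of 1 (3.03%, against 16.4%). In Zpbp2 KO liver 3 the sum of each marker list was inside the range of the other livers, with stellate cell markers at 357 CPM. Markers of myofibroblasts and portal fibroblasts summed to 43.4 CPM there. Whether cell content had a part in its collagen values was not tested.

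**Figure D3:**
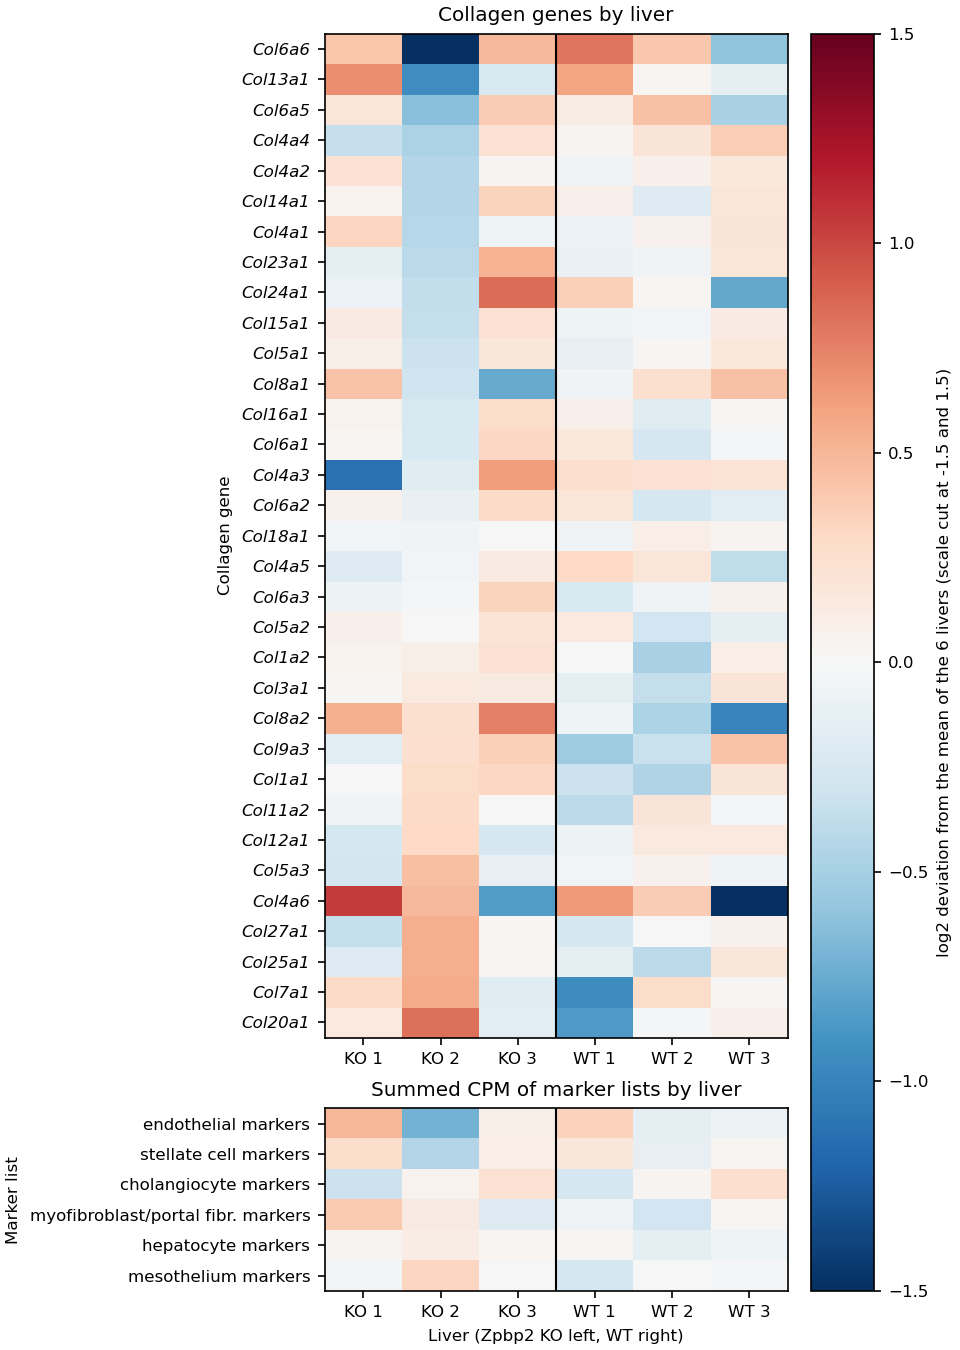
Each liver's log2 deviation from the mean of the 6 livers for the 33 tested collagen genes (upper panel) and for the summed CPM of 6 cell type marker lists (lower panel), with Zpbp2 KO livers left of WT livers. Genes run from the lowest to the highest value in Zpbp2 KO liver 2, where 11 collagens were lowest of all livers and 7 were highest, and where endothelial and stellate cell markers were also lowest.

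Among genes that fold, process and break down collagen, none was called between the genotypes by edgeR. Of 24 tested genes for procollagen modification and folding, 0 passed edgeR's test, 11 lay above 0 and 13 below, the median of the log2 fold changes being -0.01. Serpinh1, the collagen chaperone HSP47, averaged 14.6 ± 3.50 CPM in Zpbp2 KO livers and 13.3 ± 3.43 CPM in WT livers (SD, n = 3 each). P4ha1, a subunit of the proline hydroxylase that steadies the helix, averaged 9.96 ± 1.36 CPM in Zpbp2 KO livers and 9.04 ± 0.524 CPM in WT livers, and its log2 fold change of 0.14 ± 0.143 was 0.03 without Zpbp2 KO liver 2. Sec23a, a coat protein needed to export procollagen from the endoplasmic reticulum, had 68.3, 76.3 and 87.2 CPM in Zpbp2 KO livers and 95.8, 90.6 and 90.4 CPM in WT livers. Its groups did not overlap, and the log2 fold change was -0.26 ± 0.110, with an unadjusted p of 0.0478 and an adjusted p of 0.798 in edgeR's test. Ppib, a proline isomerase of the same compartment, had a log2 fold change of 0.32 ± 0.159, with overlap, or 0.20 without Zpbp2 KO liver 2. On this list P3h3 and Plod2, chosen after their values were seen, were higher in Zpbp2 KO livers, also without overlap. Groups without overlap, in either direction, were found for 11.6% of all tested genes.

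Of 19 tested genes for procollagen cleavage and crosslinking, 0 were called, 10 were above 0 and 9 below. Pcolce, which speeds the trimming of procollagen ends, averaged 9.52 ± 1.16 CPM in Zpbp2 KO livers and 7.88 ± 1.03 CPM in WT livers. Lox, a crosslinking oxidase, was scarce, at 0.355, 0.482 and 0.192 CPM in Zpbp2 KO livers and 0.229, 0.616 and 0.944 CPM in WT livers. Of 16 tested genes for collagen degradation and its inhibitors, 0 were called, 11 were above 0 and 5 below, with a median of 0.05. Mmp12, a macrophage metalloproteinase, had a log2 fold change of -1.14 ± 0.470 with overlapping groups (edgeR unadjusted p = 0.0405, adjusted p = 0.798). Mmp14, a membrane-bound collagenase, and Mmp2, a gelatinase, had log2 fold changes of -0.15 and 0.09, or -0.07 and 0.17 without Zpbp2 KO liver 2. Timp1, a metalloproteinase inhibitor that is induced in liver injury, was too low to test, at 0.102 ± 0.0137 CPM in Zpbp2 KO livers and 0.0765 ± 0.00197 CPM in WT livers, near the level that 3 counts stand for.

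Of 12 tested collagen receptors, 0 were called, 7 were above 0 and 5 below. Itgb1, the β1 integrin chain shared by collagen-binding integrins, averaged 167 ± 17.5 CPM in Zpbp2 KO livers and 189 ± 21.2 CPM in WT livers, with a log2 fold change of -0.18 ± 0.121, or -0.10 without Zpbp2 KO liver 2, and Itga1, one of its partners, had a log2 fold change of -0.19 ± 0.135. Among laminins, nidogens and other basement membrane genes, 0 of 24 tested genes were called, 8 were above 0 and 16 below, with a median of -0.08. Lamc1, the γ1 laminin chain, had 19.8, 14.8 and 21.8 CPM in Zpbp2 KO livers and 22.1, 22.2 and 22.1 CPM in WT livers. The lowest value was once more that of Zpbp2 KO liver 2, and without it the log2 fold change of -0.23 ± 0.148 was -0.09. Lamb3, a β laminin chain, had a log2 fold change of -0.31 ± 0.204. For both of these laminin genes every Zpbp2 KO liver was below every WT liver, as for 6.01% of all tested genes.

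The TGF-beta pathway is the best known inducer of collagen genes in stellate cells. Of its 27 tested genes, 10 were above 0 and 17 below, with a median of -0.07, and edgeR called 0. At an unadjusted p under 0.05, 4 of the 27 were lower and 0 were higher in Zpbp2 KO livers, where 2.93% of all tested genes were lower and 2.86% higher. Smad7, the inhibitor that TGF-beta induces against its own receptor, had 9.64, 8.84 and 12.0 CPM in Zpbp2 KO livers and 16.1, 14.5 and 16.9 CPM in WT livers. The groups did not overlap. Its log2 fold change was -0.64 ± 0.147, with an adjusted p of 0.533 in edgeR's test and of 0.0387 in DESeq2's, so only DESeq2 called it. Also among the 4, and chosen after their values were seen, were Skil, a corepressor of Smad proteins, and Itgav, an integrin chain that helps release TGF-beta. Skil had a log2 fold change of -0.61 ± 0.163 and Itgav one of -0.34 ± 0.142, with adjusted p of 0.659 and 0.798 in edgeR's test. Tgfb1 itself was at 13.0, 5.35 and 10.2 CPM in Zpbp2 KO livers and 12.7, 9.41 and 7.81 CPM in WT livers, with the lowest value in Zpbp2 KO liver 2. Its log2 fold change was -0.07 ± 0.311, or 0.22 without that liver.

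**Figure D4:**
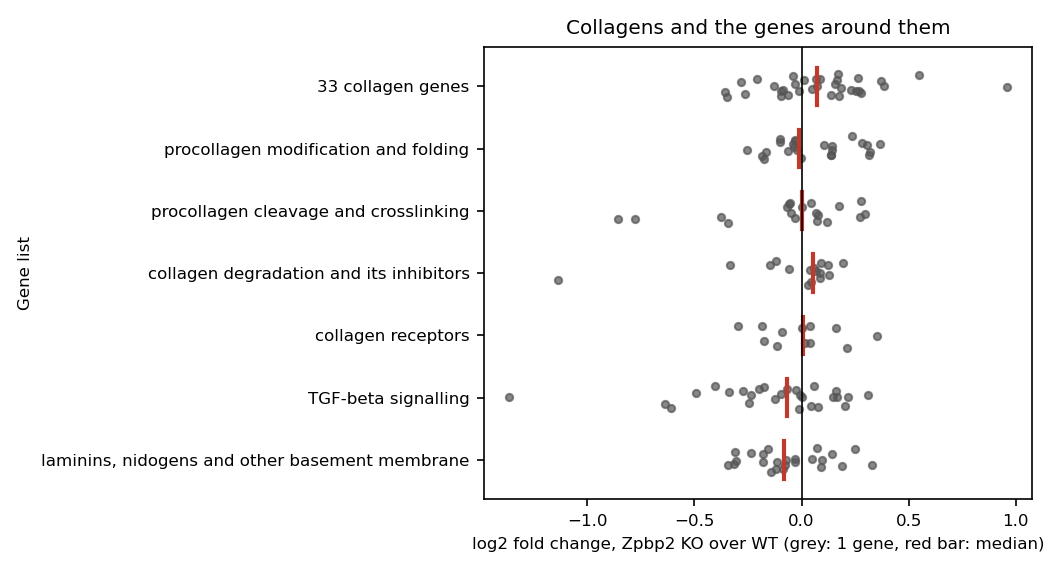
Log2 fold change, Zpbp2 KO over WT, of each tested gene in 6 lists around the collagens and of the 33 collagen genes (grey points), with the median of each list as a red bar. Medians run from -0.08 to 0.07, and Smad7, on the TGF-beta list, lies at -0.64.

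Markers of the cells that make collagen were also set beside it. Of 14 stellate cell markers, 6 were above 0 and 8 below, and 0 passed edgeR's test, with sums of 244 to 397 CPM in Zpbp2 KO livers and 306 to 373 CPM in WT livers. Lrat, the enzyme by which stellate cells store vitamin A, was at 22.2, 11.5 and 24.0 CPM in Zpbp2 KO livers and 18.04, 18.12 and 28.1 CPM in WT livers, with a log2 fold change of -0.15 ± 0.284, or 0.11 without Zpbp2 KO liver 2. Hgf, the growth factor, and Reln, a matrix protein, had log2 fold changes of -0.60 ± 0.292 and -0.26 ± 0.189, which were -0.34 and -0.06 without Zpbp2 KO liver 2. Des, the filament protein desmin, had one of -0.50 ± 0.422. Of 13 markers of myofibroblasts and portal fibroblasts, 11 were above 0 and 2 below, with a median of 0.41, and 0 were called. Acta2, the smooth muscle actin of activated stellate cells and of vessel walls, was at 5.81, 7.30 and 1.03 CPM in Zpbp2 KO livers and 2.99, 3.06 and 2.75 CPM in WT livers. The highest and lowest values were both Zpbp2 KO livers, and the log2 fold change of 0.68 ± 0.559 was 0.21 without liver 2. Dpt, a matrix protein of fibroblasts, had 5.92, 6.05 and 6.42 CPM in Zpbp2 KO livers and 4.52, 4.46 and 5.77 CPM in WT livers, without overlap, and its log2 fold change of 0.32 ± 0.165 had an adjusted p of 0.798 in edgeR's test. The list sums of 43.4 to 64.8 CPM in Zpbp2 KO livers and 40.5 to 49.9 CPM in WT livers overlapped, and their part in the values of Col1a1 and Col3a1 was not tested.

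On the list for the mesothelium, the cell layer of the capsule, all 6 genes lay above 0 (median 0.42) and none was called. Krt18, a keratin that hepatocytes also make, gave 96.2% to 98.1% of the list's summed CPM, and the other 5 genes were at 0.210 to 3.57 CPM in single livers. Msln and Upk3b had unadjusted p of 0.0425 and 0.0414 in edgeR's test, with log2 fold changes of 0.77 ± 0.322 and 0.85 ± 0.351, both adjusted to 0.798, and Msln also stands on the myofibroblast list. Of 12 endothelial markers, 5 were above 0 and 7 below, with sums of 226 to 521 CPM in Zpbp2 KO livers and 338 to 471 CPM in WT livers, and the receptors Lyve1 and Tek had log2 fold changes of 0.18 and -0.16, or 0.48 and 0.14 without Zpbp2 KO liver 2. Of 8 cholangiocyte markers, 4 were above 0 and 4 below, with Krt19, a bile duct keratin, at 0.23. Of 10 hepatocyte markers, 9 were above 0 with a median of 0.17, among them Asgr1, a hepatocyte lectin receptor, at 0.24 ± 0.111, and Tat, a tyrosine-degrading enzyme, was the exception at -0.43 ± 0.148 (edgeR unadjusted p = 0.0183, adjusted p = 0.798). None of these marker genes passed edgeR's test after adjustment.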

How the data were processed

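Poly(A)-selected liver RNA was sequenced as pairs of 100 bases with a directional kit, per the labels' protocols. The authors deposited 1 table of whole-number counts per Ensembl gene and library, with no normalization. STAR, Picard, HTSeq and the build mm9 are named per the submitters' processing notes. For these tools no version, setting, gene annotation or strand option was found in the labels (not given in the sources used here), so genes that overlap on opposite strands, such as Col9a3 with Tcfl5 (234 shared exon bases), Col5a1 with antisense transcripts (99 and 113), and Col4a3 (563), are less certain. All 6 columns were matched to samples by title, and 0 columns were unused. Labels name 3 livers per genotype, so the spread within a group is one between animals, and no pair of libraries agreed within sampling noise (chi-square of 20.3 to 122 per gene).

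Symbols, chromosomes and lengths came from GENCODE M21 (GRCm38), and 5072 IDs had no symbol. Counts kept by filterByExpr (minimum count of 10) were scaled by TMM and tested two-sided with edgeR 4.0.16 (glmQLFTest, R 4.3.3), Zpbp2 KO against WT with no covariate, over 14686 genes with Benjamini-Hochberg adjustment. SEs and 95% intervals follow from that test, and CPM means are ± SD. DESeq2 1.42.0 and limma-voom (limma 3.58.1) were alternatives, as were other scalings and filters, a replicate block, offsets for transcript length and GC content, and each liver left out. The tests were also run on counts drawn independently from the means and dispersions of these same data. That run required only that no changed gene was called in the wrong direction. It does not show how the tests behave with differences shared across genes within an animal. Intervals and floors cover counting error only where they rest on counts of 1 library.

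The collagens and the lists were chosen with earlier results of these data known. Named in full were the classical liver collagen chains, the 5 highest per length, any with an unadjusted p under 0.05, the 2 with the smallest p in each class, and from each list the called genes or else the 2 with the smallest p, plus Serpinh1, P4ha1, Lox, Timp1, Mmp2, Tgfb1, Acta2, Des, Lrat and Alb. Col8a1, Col13a1, single low collagens and the pairs of chains were added after values were seen. A few list genes that the rule or the counts would name are not reported here.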

Additional observations from a re-analysis of the deposited data

How the results depend on the processing

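Across 14 alternatives, edgeR, DESeq2 and limma-voom called 0 collagen genes, and the lowest adjusted p of a named collagen was 0.408 (Col20a1 without Zpbp2 KO replicate 3). The count over all genes was 2 with edgeR (0 higher, 2 lower), 75 with DESeq2 (26 higher, 49 lower), 12 with no filter on low counts (3 higher, 9 lower), and 2 to 4 with 1 liver left out, 4 being without Zpbp2 KO replicate 2. The median collagen log2 fold change ran from -0.06 to 0.17 over the left-out livers. Over the 49 named genes that were tested, 653 of 684 recomputed values kept their sign and side of the threshold, 30 changed sign and 1 was newly called, Smad7 by DESeq2. The sign of Col15a1 changed with DESeq2 (-0.00164), library totals (-0.0156) and the replicate block (-0.00817), and that of Col5a1 (0.0191) and Col14a1 (0.0252) with length and GC trends removed. With 1 liver left out, signs turned within these ranges of log2 fold change, lowest to highest. Col5a3 ran from -0.19 to 0.21, Col27a1 from -0.10 to 0.36, Col14a1 from -0.20 to 0.17, Col4a1 from -0.30 to 0.0758, Col4a2 from -0.24 to 0.0687, Col5a1 from -0.13 to 0.10, Col6a1 from -0.0605 to 0.21 and Col15a1 from -0.10 to 0.17. Serpinh1 ran from -0.0523 to 0.35, Tek from -0.45 to 0.14, Tgfb1 from -0.36 to 0.22, Lrat from -0.34 to 0.11, Lyve1 from -0.0833 to 0.48, Des from -0.80 to 0.16 and Mmp2 from -0.14 to 0.22. The cause was not tested.

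The replicate block left 2 genes called. Same-numbered livers deviated from their group means with correlations of 0.14, 0.20 and -0.24, and not every liver correlated best with its own number, so the labels' numbers were not taken as pairs. Genes with few counts, such as Col8a2, are limited by depth as well as by 3 livers a group. Col8a2 has no value under the filter of 20 counts in 3 libraries. Length and GC values covered 97.0% of tested genes. Class counts under the alternatives, and the order by coding length, were added after seeing the data.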
